A study of Homo sapiens with 4 samples.

Results

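The BCL2 family decides whether mitochondria release cytochrome c, and 10 of its genes were followed here in human mammary epithelial cells with and without a short hairpin RNA (shRNA) against PAK1, a serine-threonine kinase downstream of Rac and Cdc42. The members were taken by name, as the array spots whose gene name was BCL2, BCL2L1, MCL1, BCL2A1, BAX, BAK1, BBC3, PMAIP1, BID or BCL2L11. All 10 had spots, 43 per array from 16 different 60-base probes, and all 10 were among the 21248 genes that could be tested. In the fit over all genes 7 members were higher in PAK1 shRNA cells, 2 were lower and 1 did not pass the threshold. Of all genes tested, 30.8% were called higher and 32.0% lower.

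The cells of both groups were MCF10A.B2, a derivative of the immortalized, non-tumorigenic breast epithelial line MCF10A that carries a chimeric Her2 (ErbB2) receptor which the chemical crosslinker AP1510 brings together and activates. Every culture was kept in DMEM/F12 with 5% horse serum, deprived of serum for 3 h and given AP1510 for 15 min, so that no array shows cells without receptor activation. The control group held 2 arrays of cells with wild type PAK1, and the PAK1 shRNA group held 2 arrays of cells with a stably integrated, Tet inducible hairpin against PAK1. The sources used here name neither the inducer and its duration nor a non-targeting hairpin in the controls, so that loss of PAK1 and expression of a hairpin cannot be told apart. The series text speaks of cells from 2 tumors per group while the sample labels name the cell line, and nothing says whether the arrays of a group came from separate cultures. P-values therefore measure the spread between these arrays only, which may be technical.

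The proteins of this family act on the outer mitochondrial membrane. The survival proteins BCL2, BCL-XL (from BCL2L1), MCL1 and BFL-1 (from BCL2A1) hold the effectors BAX and BAK in check, and BAX and BAK form the pores through which cytochrome c leaves once they are freed. BH3-only proteins, among them PUMA (BBC3), NOXA (PMAIP1), BID and BIM (BCL2L11), carry the stress signal by occupying the survival proteins or by activating the effectors directly. Mammary epithelial cells of this line depend on growth factor and matrix signals to restrain BIM.

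Expression was measured on 1-colour arrays with 60-base probes, all 4 on 1 slide. Values below are log2 intensities after background correction and quantile normalization, given in the order control 1, control 2, PAK1 shRNA 1, PAK1 shRNA 2, and differences are PAK1 shRNA minus control. Adjusted p-values are Benjamini-Hochberg values over the 21248 genes from limma, with a threshold of 0.05. A permutation of 2 against 2 arrays cannot go below 0.333 (exact, two-sided), and the limma calls draw on a spread shared across genes. Between 78.9% and 83.2% of probes were well above background, and the median raw intensity was 501 and 384 on the control arrays against 326 and 319 on the PAK1 shRNA arrays, so that the levels rest on the scaling. PAK1 itself read 11.19, 11.27, 10.44 and 10.51, a fall of the signal to 59.2% of control (log2 difference -0.76, SE 0.08, limma adjusted p = 0.00017), and the groups did not overlap. All 8 basal mammary markers were well above background on the 4 arrays, with 3 higher, 4 lower (KRT5 by -1.20) and 1 not called. The luminal list had 4 of 5 genes tested with 2 higher and 1 lower, the white blood cell list had 6 of 7 tested with 1 higher (ITGAM, 0.46), and the fibroblast list had 3 of 5 tested with 2 higher and 1 lower. All 7 white blood cell markers, 4 of 5 luminal and 2 of 5 fibroblast markers were also well above background on the 4 arrays. Detection alone therefore does not tell these cell types apart. The part of these shifts in the results below was not tested.

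Change was common on these arrays, and the member counts must be read against it. Over all genes tested, 30.8% were called higher and 32.0% lower in PAK1 shRNA cells, 62.8% in all, while 9 of the 10 members were called. The groups did not overlap in 10 of 10 members, and in 81.7% of all genes (41.9% with PAK1 shRNA cells higher and 39.8% lower). A change of at least 2-fold that also passed the threshold was found in 6 members, 4 higher and 2 lower, against 8.77% of all genes higher and 9.09% lower. The median log2 difference of the members was 0.80, beside 0.018 over all genes, and the median of its absolute size was 1.19 beside 0.37. These counts describe a list of 10 genes chosen by name with earlier results known, and are not a test of it. In RNA from whole cultures, fewer cells that express a gene and less of its RNA per cell cannot be told apart.

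**Figure D1:**
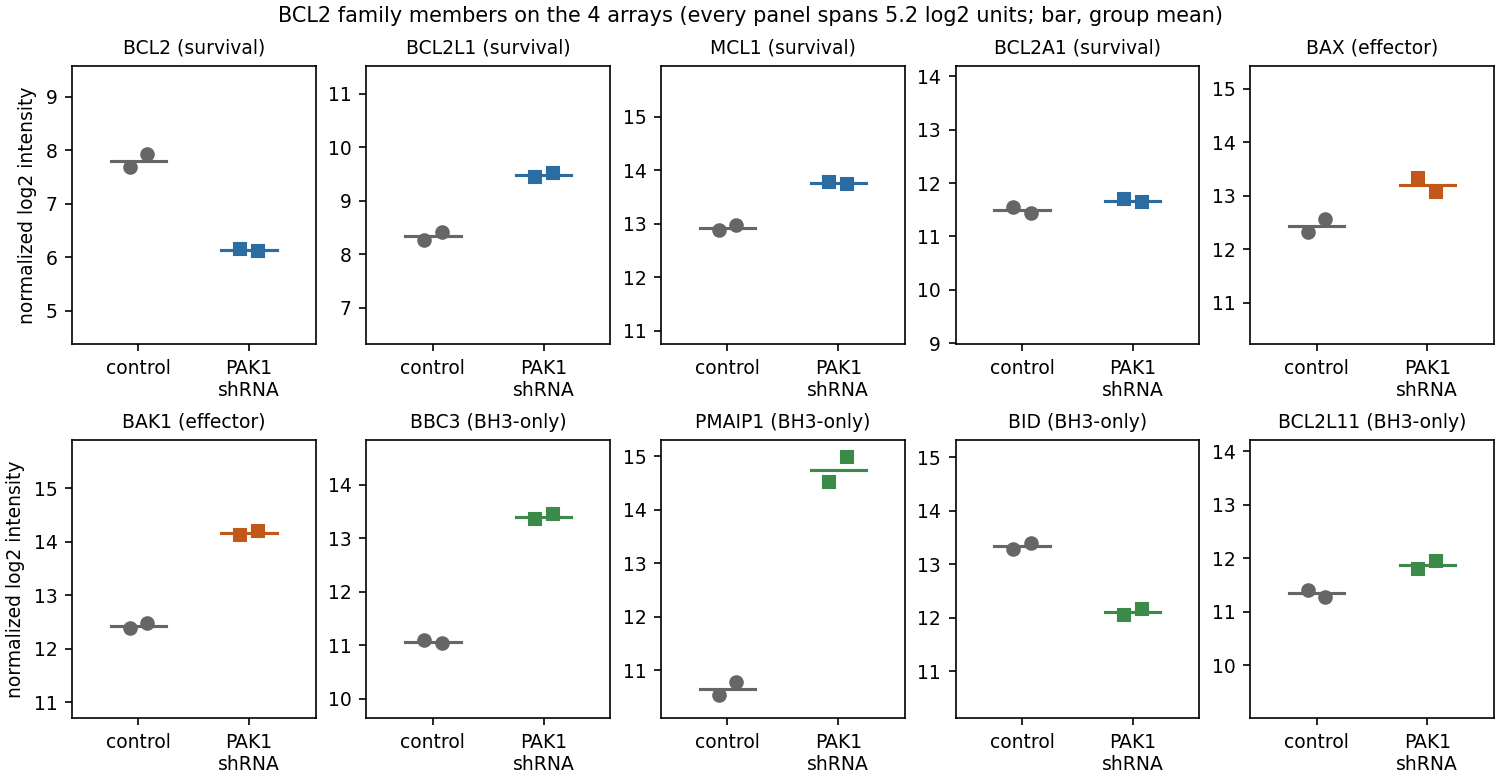
Normalized log2 intensity (y axis) of the probe read for each of the 10 members on the 4 arrays, with control arrays as circles, PAK1 shRNA arrays as squares and the group mean as a bar; all panels span the same number of log2 units. PMAIP1 moved from 10.53 and 10.78 to 14.52 and 14.98, BCL2 and BID moved down, and the BCL2A1 groups lay close together, from 11.44 to 11.70.

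Among the survival genes BCL2 fell while BCL2L1 and MCL1 rose. BCL2, the founding member of the family, read 7.68 and 7.93 in control cells and 6.16 and 6.12 in PAK1 shRNA cells on probe A_23_P352266, which is printed as 10 spots on each array and lies at 18:60790723-60790782 on the minus strand (hg19, as in the scanner files). The raw intensities were 240 and 229 against 53.4 and 51.9. Neither PAK1 shRNA array was well above background at this probe, so that only a bound can be given. Control cells averaged 7.81 ± 0.17 and PAK1 shRNA cells 6.14 ± 0.03 (SD, n = 2). Against the lowest signal among probes well above background, BCL2 was at least 3.07-fold lower at this probe under this processing. This bound does not hold with the background model fitted on all spots (log2 difference -0.90). The fitted log2 difference under the main processing was -1.67 (limma adjusted p = 1.5e-05). The spread between the printed spots (SD 0.15 and 0.17 on the control arrays, 0.088 and 0.096 on the PAK1 shRNA arrays) was small beside this difference.

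A second BCL2 probe gave a smaller fall. It lies at 18:60985401-60985460 on the minus strand and is shown because the size of the BCL2 change depends on which of the 2 probes is read.

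BCL2 A_33_P3355185: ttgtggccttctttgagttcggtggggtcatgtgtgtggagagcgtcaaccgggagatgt

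It was well above background on all 4 arrays, but its only spot on control array 1 had a flagged local background and was left out, so that it had no test among the main values. The remaining arrays read 7.94 in control 2 and 7.25 and 7.20 in the PAK1 shRNA cells. With spots of flagged background kept, a setting added after the data were seen, the 4 arrays read 7.73, 7.93, 7.25 and 7.20, a log2 difference of -0.61 (SE 0.09, limma adjusted p = 0.0012 over genes), or a signal of 0.657 times that of control. Both probes were thus lower in PAK1 shRNA cells with no overlap, and neither level can be set against the other. Over the alternatives in processing the BCL2 difference ran from -4.58, with processed signals scaled to the 75th percentile, to the -0.61 of the second probe, and it read -0.90 with the background model fitted on all spots and -2.39 with a smaller offset. The direction held in all 16 alternatives that gave a value, though it could not turn where only the test, the block or a left-out array differed. The size did not hold.

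BCL2L1, whose long form BCL-XL blocks BAX and BAK and whose short form does not, read 8.27, 8.42, 9.45 and 9.51 on a probe at 20:30253324-30253383, minus strand, also printed as 10 spots. Both PAK1 shRNA arrays lay above both controls, and the signal was 2.19-fold higher (log2 difference 1.13, SE 0.08, 95% interval 0.93 to 1.33, limma adjusted p = 4.0e-05). One probe cannot separate the long and the short form.

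MCL1, a survival protein with a short half-life that NOXA targets for destruction, read 12.89, 12.97, 13.79 and 13.74 (1:150547622-150547681, minus strand). The control arrays differed by less than 0.1 and the shift was 1.78-fold (log2 difference 0.83, SE 0.08, 95% interval 0.65 to 1.02, limma adjusted p = 0.0001).

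BCL2A1, an NF-kB target that encodes BFL-1, did not pass the threshold. Its brighter probe, A_23_P321703, read 11.54, 11.44, 11.70 and 11.65, a log2 difference of 0.18 (SE 0.08, 95% interval -0.0046 to 0.37, limma adjusted p = 0.081). The groups did not overlap, but the raw intensities ran the other way, at 3988 and 2919 in control and 2786 and 2672 in PAK1 shRNA cells, so that the direction rests on the scaling between arrays. The file places 33 of the 60 bases of this probe at 15:80253220-80253252, minus strand. The second probe, at 15:80263136-80263195 on the same strand, is shown because it disagrees with the first in being near background.

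BCL2A1 A_23_P152002: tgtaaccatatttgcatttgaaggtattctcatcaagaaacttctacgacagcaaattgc

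It read 6.06, 5.995, 6.30 and 6.56, was well above background on PAK1 shRNA array 2 alone, and was not tested.

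Both effectors were higher in PAK1 shRNA cells. BAX, which moves from the cytosol to mitochondria when activated, read 12.32, 12.56, 13.34 and 13.08 on a 10-spot probe at 19:49464904-49464963, plus strand. The group means were 12.44 ± 0.17 and 13.21 ± 0.18 (SD, n = 2), with a like spread in both groups, and the lower PAK1 shRNA array still lay above the higher control. The signal was 1.70-fold higher (log2 difference 0.77, SE 0.12, limma adjusted p = 0.0014). The single spots of this probe varied on each array with an SD of 0.17 to 0.21. A second BAX probe, upstream at 19:49464454-49464513, read 8.96, 8.90, 9.88 and 9.76, with a difference of 0.89 (SE 0.08, limma adjusted p = 6.8e-05 over 26301 probes, of which 63.6% were called).

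BAK1, whose protein sits in the outer membrane and is held by BCL-XL and MCL1, read 12.39, 12.47, 14.13 and 14.21 (6:33540585-33540644, minus strand). The arrays of each group lay within 0.1 of each other and the groups were far apart, with a 3.33-fold higher signal in PAK1 shRNA cells (log2 difference 1.74, SE 0.08, 95% interval 1.55 to 1.92, limma adjusted p = 4.9e-06). BAK1 ranked 760 of 21248 by size of rise.

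**Figure D2:**
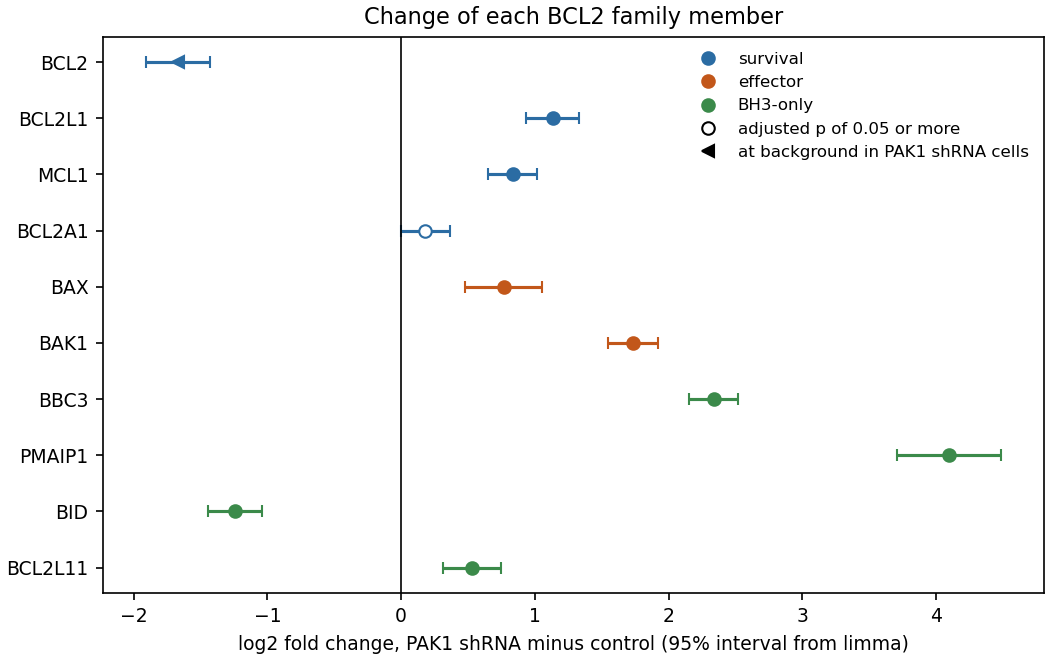
Log2 difference (x axis, PAK1 shRNA minus control) of each member with its 95% interval from limma, coloured by role, with an open circle for an adjusted p of 0.05 or more and a triangle where the PAK1 shRNA arrays were not well above background. PMAIP1 (4.10) and BBC3 (2.34) lie farthest to the right, BCL2 and BID lie left of 0, and the BCL2A1 interval reaches from -0.0046 to 0.37.

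Of the BH3-only genes, 3 rose and BID fell. PMAIP1, which encodes NOXA, the BH3-only protein with a preference for MCL1 and BFL-1, had the largest change of the 10 members. It read 10.53, 10.78, 14.52 and 14.98 (18:57570691-57570750, plus strand), from raw intensities of 2002 and 1860 in control and 19935 and 28254 in PAK1 shRNA cells. Every PAK1 shRNA array was far above both controls, by 17.1-fold (log2 difference 4.10, SE 0.16, 95% interval 3.71 to 4.48, limma adjusted p = 3.1e-06), and no array was saturated at this probe. PMAIP1 ranked 89 of 21248 by size of rise. Leaving out each array in turn kept the difference between 3.86 and 4.33.

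BBC3, which encodes PUMA, a BH3-only protein that binds all survival members, read 11.10, 11.04, 13.36 and 13.44 (19:47724174-47724233, minus strand). Both groups were tight and did not overlap, and the signal was 5.05-fold higher in PAK1 shRNA cells (log2 difference 2.34, SE 0.08, limma adjusted p = 1.5e-06), rank 414 of 21248.

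BCL2L11, which encodes BIM, was measured by 3 probes and moved least of the called members. The brightest, at 2:111925892-111925951 on the plus strand, read 11.40, 11.28, 11.80 and 11.95, a 1.44-fold higher signal (log2 difference 0.53, SE 0.09, limma adjusted p = 0.0020). The probes at 2:111886352-111886411 and 2:111878705-111878764 gave differences of 0.65 (SE 0.11, limma adjusted p = 0.0015) and 0.46 (SE 0.08, limma adjusted p = 0.0023), both adjusted over the probes. All 3 were higher in both PAK1 shRNA arrays after normalization. The raw intensities of the groups overlapped at all 3 probes. For the first they were 3637 and 2623 in control and 2969 and 3284 in PAK1 shRNA cells. The second read 1804 and 1131 against 1539 and 1570, and the third 1972 and 1438 against 1536 and 1670. The rise of BCL2L11 thus rests on the scaling too.

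BID, which links death receptors to mitochondria once caspase-8 has cut it, was the BH3-only member that fell. Its brighter probe, at 22:18218265-18218324 on the minus strand, read 13.28, 13.41, 12.05 and 12.16. Both PAK1 shRNA arrays lay below both controls, and the signal was 42.3% of control (log2 difference -1.24, SE 0.08, 95% interval -1.44 to -1.04, limma adjusted p = 2.7e-05). The neighbouring probe at 22:18218182-18218241 read 12.59, 12.76, 11.39 and 11.50, with a difference of -1.23 (SE 0.09, limma adjusted p = 2.3e-05 over the probes).

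**Figure D3:**
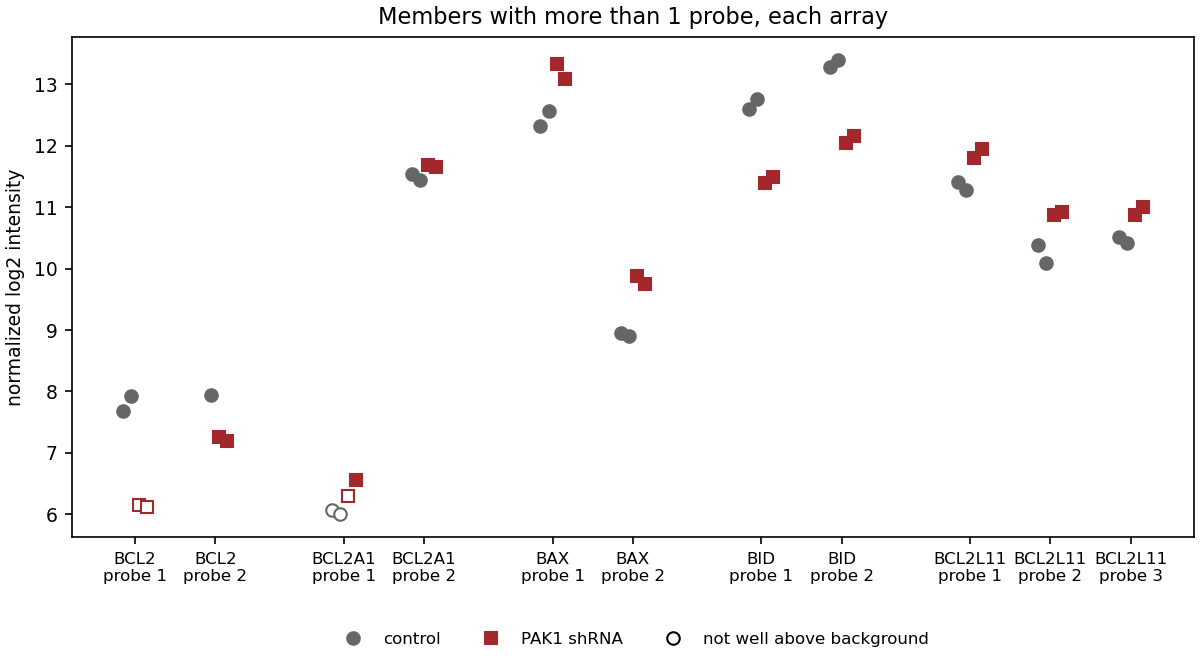
Normalized log2 intensity (y axis) of every probe of the 5 members with more than 1 probe, on each control array (circle) and PAK1 shRNA array (square), open where the probe was not well above background. The probes of BAX, BID and BCL2L11 moved the same way within a gene, while the BCL2 probes fell by different amounts and 1 BCL2A1 probe was near background; heights of different probes cannot be compared.

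Promoter sequences were available in the RefSeq tables (GRCh38.p14) for 9 of the 10 members, MCL1 being the other, and were searched from 250 bases before to 50 after each start, on both strands, for the letters of 4 motifs. The members had 14 such windows, some genes having several, and a member was counted if any of its windows held a match, beside the share of 27305 genes counted in the same way. An NF-kB motif (GGG and CC with any 5 bases between) was found in 6 of 9 members and in 61.7% of genes (10 of 14 member windows and 58.7% of 35116 windows). An E2F motif (TTTNGCGC) was found in BCL2L1 alone and in 2.17% of genes, and a CRE motif (TGACGTCA) in no member and in 2.25%. An interferon response motif (GAAA and GAAA with any 2 bases between) was found in 2 members, BBC3 and BCL2A1, and in 4.38% of genes. A match is a description of letters only, and binding was not measured. The promoters of the member that rose most and of the member that did not pass the threshold are shown to set them side by side, together with the BBC3 match, each read along the strand of the gene. Capitals mark the NF-kB letters in PMAIP1 (chr18:59899746-59899995, plus strand) and the interferon response letters in BCL2A1 (chr15:79971197-79971446, minus strand), where they lie on the other strand at -133 to -124. The BBC3 stretch (chr19:47232627-47232642, minus strand) holds 2 overlapping matches at 25 to 40, with the first transcribed base counted as 0.

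PMAIP1 promoter: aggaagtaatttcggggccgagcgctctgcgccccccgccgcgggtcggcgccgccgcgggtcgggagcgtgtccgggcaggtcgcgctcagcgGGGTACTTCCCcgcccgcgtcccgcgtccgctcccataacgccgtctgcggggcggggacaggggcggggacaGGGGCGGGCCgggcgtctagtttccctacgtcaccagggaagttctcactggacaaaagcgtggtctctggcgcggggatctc

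BCL2A1 promoter: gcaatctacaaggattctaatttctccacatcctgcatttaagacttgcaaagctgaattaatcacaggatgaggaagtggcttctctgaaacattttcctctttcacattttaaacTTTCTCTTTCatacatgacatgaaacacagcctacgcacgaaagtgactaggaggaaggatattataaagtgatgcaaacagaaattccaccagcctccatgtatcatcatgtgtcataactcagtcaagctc

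BBC3 match: GAAACTGAAAAAGAAA

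The other genes of the mitochondrial death pathway moved in both directions. Of 57 genes in 7 lists, 56 were tested, 25 were higher, 21 lower and 10 not called, with a median log2 difference of 0.10 beside 0.018 over all genes. The counts of these lists stand beside 30.8% called higher and 32.0% called lower over all genes. Among the other BCL2 homologues, 6 of 7 were tested, 1 was higher and 3 lower, with a median of -0.39. BCL2L12, an atypical homologue, fell most (14.81, 14.95, 12.14 and 12.13, a difference of -2.74, SE 0.08, limma adjusted p = 1.1e-06). The mean over the BCL2L12 probes gave -2.25. BOK, an effector related to BAX and BAK, fell by 1.38 and BCL2L10 by 0.77 on the log2 scale, while BCL2L13, a mitochondrial homologue, rose by 1.09 on its brightest probe and by 0.52 as the mean over its probes. The BCL2L10 difference ranged from -1.33 with the 75th percentile to -0.42 with the background model fitted on all spots. The survival gene BCL2L2, which encodes BCL-w, read 13.35, 13.22, 13.28 and 13.29, with a difference of -0.01 (limma adjusted p = 0.96) whose sign turned under other scalings. BCL2L15 differed by 0.04 (limma adjusted p = 0.71), and BCL2L14 was not well above background on any array.

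Of 8 other BH3-only and BNIP genes, 5 were higher, 2 lower and 1 not called, with a median of 0.69. HRK, a BH3-only gene best known from neurons, read 8.43, 8.41, 9.93 and 9.98 (1.54, limma adjusted p = 5.9e-06), and BIK, whose protein sits at the endoplasmic reticulum, rose by 1.13. The mitophagy receptors BNIP3 and BNIP3L rose by 1.65 and 1.01, and the autophagy gene BECN1 by 0.38. BAD, which growth factor kinases including PAK1 hold inactive by phosphorylation, read 11.79, 11.86, 10.86 and 10.78, a difference of -1.001 (SE 0.08, limma adjusted p = 4.9e-05). The mean over the BAD probes gave -0.76. BMF differed by -0.54 and was well above background on only 1 of the 2 PAK1 shRNA arrays, and its difference ran from -1.41 with the 75th percentile to -0.25 with median centring. MOAP1, a BAX partner, differed by -0.13 (limma adjusted p = 0.23).

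Downstream of the mitochondria, 9 genes of the apoptosome and caspases split into 4 higher, 4 lower and 1 not called, with a median of 0.17. The higher count was 1 with an unmoderated two-sample test. CASP8, the protease that cuts BID, rose most, from 10.33 and 9.71 to 12.03 and 12.25 (2.12, SE 0.20, limma adjusted p = 0.00011). CYCS, cytochrome c itself, fell most, from 13.93 and 14.15 to 11.98 and 12.02 (-2.04, limma adjusted p = 5.6e-06). Of 10 inhibitors of apoptosis and their antagonists, 6 were higher, 2 lower and 2 not called, with a median of 0.45. The lower count was 1 without control array 1, without either PAK1 shRNA array in turn, with the 75th percentile and with an unmoderated two-sample test. XAF1, an interferon-induced antagonist of XIAP, was near background on both control arrays, and its signal with the hairpin was at least 205.5-fold higher under this processing, while the fitted log2 difference ran from 6.04, with the background model fitted on all spots, to 11.90 with the 75th percentile. BIRC5 (survivin), which is also a mitotic gene, fell by 5.32 on the log2 scale. All 3 outer membrane channels were lower, with a median of -1.02 and VDAC3 lowest at -1.24. With the 75th percentile and with cyclic loess, 2 of the 3 were called lower. Among 5 genes for turnover of MCL1 and BH3-only proteins, 1 was higher (FBXW7, 0.65), 2 were lower (BTRC furthest, at -1.34) and 2 were not called, with a median of -0.07.

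Of 15 transcription factors known to act on member genes, 8 were higher, 5 lower and 2 not called, with a median of 0.50. With an unmoderated two-sample test, 5 were higher and 3 lower. ATF3, a stress-induced factor, rose most, from 9.39 and 9.94 to 14.92 and 15.34 (5.47, SE 0.20, limma adjusted p = 2.5e-06), and E2F1 fell most (-2.96). The mean over the ATF3 probes gave 3.31, and E2F1 ranged from -3.90 with the 75th percentile to -1.95 with the background model fitted on all spots. Some further factors are named after their values were seen, because they are textbook regulators of PMAIP1, BBC3 or the survival genes. TP63 differed by -1.13 and TP73 by -1.55, both called lower, while IRF1 rose by 2.97, NFKB1 by 0.99 and RELA by 0.87. None of these values measures the activity of a factor.

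**Figure D4:**
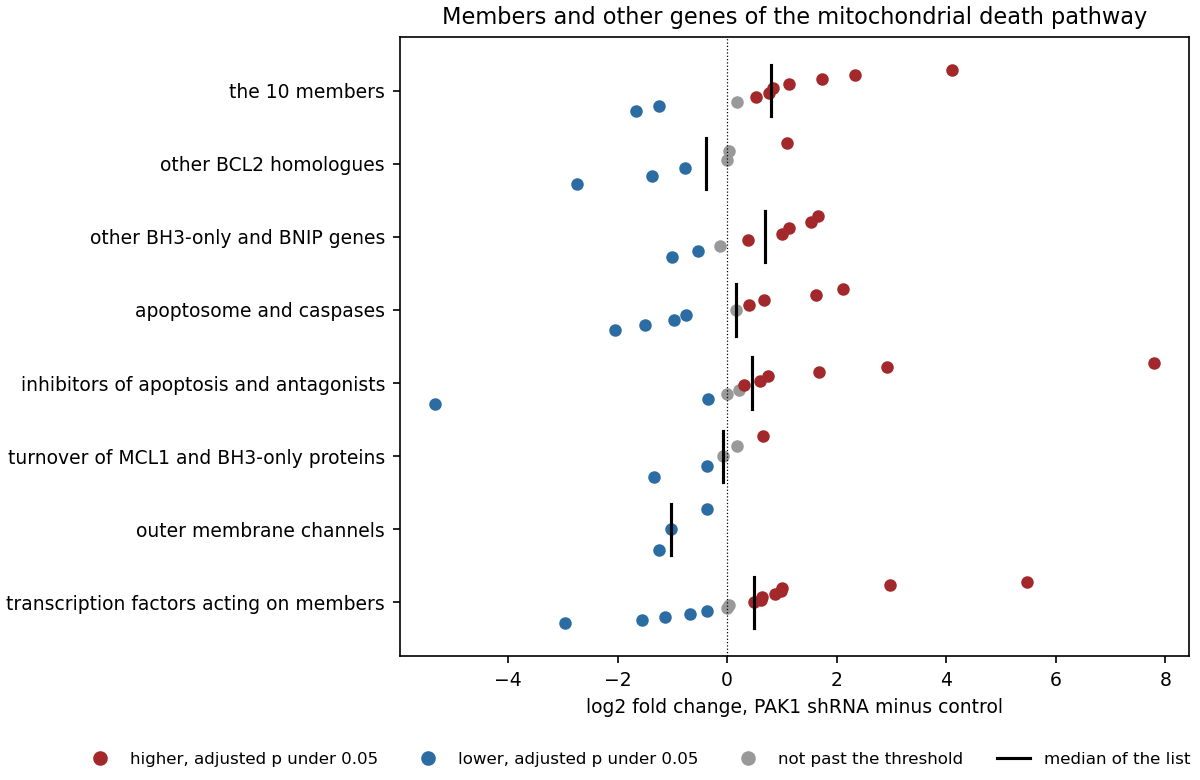
Log2 difference (x axis, PAK1 shRNA minus control) of each tested gene of the members and of 7 lists of other genes of the mitochondrial death pathway, red for higher and blue for lower past an adjusted p of 0.05, grey otherwise, with the list median as a black bar. The outer membrane channels lie left of 0 (median -1.02), while every other list holds genes on both sides; BCL2 and XAF1 are drawn at fitted values though 1 of their groups was at background.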

How the data were processed

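The authors extracted RNA from the cells, labelled it with Cy3 and scanned 1-colour whole genome arrays with Agilent Feature Extraction 9.5, per the labels. They deposited the scanner output of each array, whose values are spot intensities with local background, and a table of their log2 values, used here as an alternative only. The members and gene lists were chosen with earlier results of these data known.

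From 43118 non-control spots, those with a flagged local background (460 to 604 per array) were left out, since the normexp mean of the control arrays came to -666 and -740 when such spots entered the fit and to -9.19 and -12.1 when they did not. Intensities were corrected by normexp (offset 50), spots flagged as outliers were left out (234 to 256 per array), and the remaining values were quantile normalized. Replicate spots were averaged per probe, a probe was kept if some group had it well above background on each of its 2 arrays (26301 probes), and the brightest probe stood for each gene name (21248 genes). Groups were compared with limma 3.58.1 in R 4.3.3, without a block, with Benjamini-Hochberg adjustment. The scripts were tested on simulated data in which 200 of 21248 genes changed, far fewer than were called on these arrays. There, 61% of changes of 1 log2 unit and 1% of changes of 0.5 were recovered. The number of arrays, 2 per group, limits precision. Coordinates of probes (hg19) were copied from the scanner output, and no exon annotation was used. Named are all members, PAK1, all BCL2 relatives, and the gene with the largest rise and the largest fall of each further list among those past the threshold; a few markers and transcription factors outside this rule were named after their values were seen.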

Additional observations from a re-analysis of the deposited data

How the results depend on the processing

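The 10 members gave 169 values under other background corrections, scalings, filters, probe rules, tests and left-out arrays, of which 165 left direction and call as they were and 0 reversed. Many of these could not reverse. The block and the two-sample test keep the same difference, as do filters and probe rules for a member with 1 probe. Leaving out an array could not turn the sign either, since the groups overlapped in no member. With an unmoderated two-sample test, BAX (adjusted p = 0.089, range over its alternatives 0.00019 to 0.089) and BCL2L11 (0.068, range 0.00077 to 0.068) missed the threshold, and 4233 of all genes were called higher in place of 6544. BCL2A1 passed it with the background model fitted on all spots (0.17, adjusted p = 0.048) and with cyclic loess (0.23, adjusted p = 0.037), over a range of 0.037 to 0.30. With only probes well above background on all 4 arrays BCL2 was not tested, and 1 member was lower. Without 1 array in turn, 7 members stayed called higher and 2 lower, 5443 to 6123 genes were higher and 5819 to 6393 lower, the other pathway genes gave 22 to 25 higher and 20 to 21 lower, and PAK1 ranged from -0.80 to -0.72; a group left with 1 array is assumed to vary like the other. Scaling to the 75th percentile and median centring moved the median of all genes to 0.11 and 0.14. Of 389 values of the other named genes, 380 kept their call, 3 missed the threshold and 6 reversed, in genes not called. BCL2L2 read 0.063 with the 75th percentile, 0.13 with cyclic loess, 0.032 in the authors' log2 values, 0.012 with spots of flagged background kept and, without 1 array in turn, from -0.070 to 0.060, and BCL2L15 read -0.024 to 0.096 without 1 array in turn. The cause was not tested. Of 238 counts over the lists, 11 moved by over 1.5 times, 5 of them the lower count of the apoptosis inhibitors. The others lay in the BH3-only and BNIP, caspase, turnover and transcription factor lists, mostly with the unmoderated two-sample test.

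The replicate numbers are shared between groups, but deviations of same-numbered arrays correlated at 0.00766 over 26301 probes, so that no shared deviation was seen. This cannot tell whether same-numbered arrays were handled as pairs. With the replicate block 7 members were higher and 2 lower, among 6739 and 6897 genes, and the other pathway genes gave 25 and 21, with PAK1 at -0.76.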
